A study of Rattus norvegicus with 144 samples.

Results

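The transcripts enriched in the prefrontal cortex (PFC) were chosen by their level in control rats. A transcript was a member when its mean FPKM (fragments counted per length of transcript and per number of mapped fragments) in the PFC of saline-treated F344 rats (F344_Sal) was at least 5 and at least 4 times its mean in both the hippocampus (HIP) and the striatum (STR) of the same group. The rule found 132 members among 39285 annotated rat transcripts, and they belonged to 130 genes. The F344_Sal values chose the members, so the difference between regions in these rats is given as a description with no test, and nothing is read from comparisons of other groups with F344_Sal.

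The study compared adult male HIV-1 transgenic (HIV-1Tg) rats with F344 rats, the strain on which the transgene is held. In the HIV-1Tg rats the transgene lacks gag and pol and its expression is driven by the promoter of the virus itself, in whichever cells that promoter is active. They make viral proteins but no infectious virus. Rats of each strain received subcutaneous saline (F344_Sal and HIV_Sal) or nicotine at 0.25 mg/ml and 1 ml/kg, 2 injections per day for 17 days (F344_Nic and HIV_Nic), and punches of the PFC, the dorsal HIP and the dorsal STR were sequenced, giving 144 libraries, 12 for each group and region. The methods describe punches of the regions from each brain, so that libraries of different regions share animals, but the labels do not tie a library to an animal. The region tests treated the libraries as independent samples. The rats had served in a behavioural experiment before, which all 4 groups share.

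The PFC is a layered association cortex that plans and controls behaviour. It is built mainly of pyramidal neurons that use glutamate, whereas most neurons of the STR are inhibitory spiny projection neurons, and the HIP combines pyramidal and granule cell layers. Many brain genes also make several transcripts that share exons, and short reads that fall in shared exons are divided among these transcripts by a statistical estimate. FPKM divides by transcript length, so that the same number of fragments gives a higher FPKM in a shorter transcript.

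The deposited tables pair transcript identifiers with gene identifiers and not with gene names. None of the 132 members matched the gene tables used here (0 identifiers), and the named functions of members and the marker genes of cortical, hippocampal and striatal cells were not analysed here. The members are therefore described by identifier or by transcript length. In tissue punches, fewer cells of a type and less RNA per cell cannot be told apart. Each region and strain was deposited as a table of its own.

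Read totals are not listed, so depth in reads is unknown. The listed read coverage per FPKM ranged from 2.08 to 3.56 in the PFC libraries, from 1.64 to 2.49 in the HIP libraries and from 1.64 to 3.52 in the STR libraries. HIV_Nic rats 10 and 11 stood apart in the PFC, with a median correlation of 0.506 and 0.577 with the other PFC libraries on the log2 scale, against a median of 0.624 over all PFC libraries. In the HIP the lowest were HIV_Nic rat 4, at 0.590, and F344_Sal rat 10, at 0.595, against 0.636. In the STR the lowest were F344_Sal rat 10, at 0.578, and HIV_Sal rat 6, at 0.585, against 0.624. Fits without HIV_Nic rats 10 and 11 (PFC) and 4 (HIP) were run, while the other low libraries were kept in every fit, F344_Sal rat 10 among the values that chose the members. Their part in the results was not tested. No pair of samples held identical values.

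The members fell into 2 kinds by transcript length. Of the 132, 71 were under 250 bases long, from 60 to 229 bases with a median of 94, and 61 were from 487 to 10413 bases long with a median of 3353. No member had a length between 229 and 487 bases, and the limit of 250 bases was chosen after the lengths were seen. Short transcripts made up 53.8% of the members and 12.1% of all transcripts with a listed length. Among the 6971 transcripts that reached a mean of 5 FPKM in the F344_Sal PFC, 3.29% were under 250 bases.

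The short members owed their place to few rats. A member counted as detected in a rat when its FPKM exceeded 0.01. Of the 71 short members, 52 were detected in 1 of the 12 F344_Sal PFC rats, 16 in 2 rats, and none in more than 5. In all 71, a single rat held over 50% of the FPKM summed over the group. Their levels in the HIP and STR of the same group were at 0 in every rat with a value for 62 of the 71. The highest value of a short member stood on a listed coverage of 36.8 to 1981, with a median of 219.

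The highest mean of all members belonged to an 85-base transcript, the more abundant of 2 members of that length, at 264 ± 617 FPKM (SD, n = 12) in the F344_Sal PFC. It was listed at 0 in 10 of the 12 rats, and its highest value was 1680 FPKM. The same transcript reached 1367 FPKM in a single HIV_Nic PFC rat, 1378 FPKM in a single HIV_Sal HIP rat, and 2160 and 1920 FPKM in a single STR rat of the F344_Nic and the HIV_Sal group. It was thus high in scattered rats of all 3 regions. Of the 12 members with the highest F344_Sal PFC means, which ran from 50.5 to 264 FPKM, 11 were short.

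**Figure D1:**
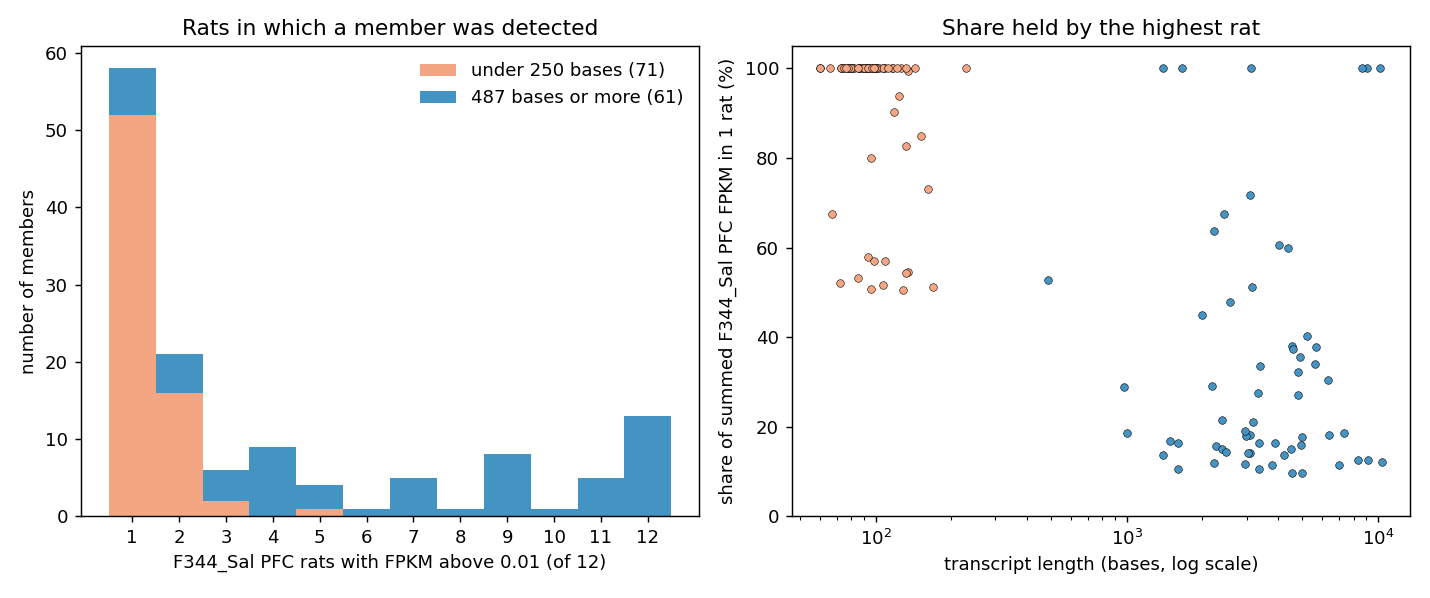
Left, the number of members (vertical axis) by the number of F344_Sal PFC rats in which the member exceeded 0.01 FPKM, stacked for the 71 members under 250 bases and the 61 longer members. Right, the share of the FPKM summed over the 12 rats that the highest rat held, against transcript length on a log axis, with 1 point per member. All 71 short members lie above 50%, and 13 of the 61 longer members do.

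In rats that the rule had not used, the short members were mostly at 0. Over the 36 PFC rats of the F344_Nic, HIV_Sal and HIV_Nic groups, 38 of the 71 were listed at 0 in every rat with a value, and 96.9% of all their PFC values were at or under 0.01. The mean over these rats was lower in the PFC than in the HIP or the STR for 33 of them, and higher in the PFC than in both for 17. The short members above 0.01 per PFC library numbered 4 to 12 in the F344_Sal group, whose values chose them. They numbered 0 to 5 in the F344_Nic and HIV_Sal groups and 0 to 6 in the HIV_Nic group. Counted over all short transcripts, the groups overlapped, with 173 to 259 above 0.01 in F344_Sal, 157 to 231 in F344_Nic, 168 to 212 in HIV_Sal and 153 to 214 in HIV_Nic libraries.

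The 61 longer members were seen in more rats, with a wide spread among them. In the F344_Sal PFC, 13 were detected in all 12 rats and 34 in at least 6, while 15 were detected in 3 rats or fewer. Over all 132 members, 64.4% were detected in at most 3 rats, beside 4.72% of the 6971 transcripts at the same PFC level. When the median over rats replaced the mean in the rule, 129 transcripts met it, and 34 of the 132 members were among them, of which 32 were longer members.

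When the same rule was applied to the means of each group that had not been used, 154 transcripts met it in F344_Nic rats, 108 in HIV_Sal rats and 151 in HIV_Nic rats. The members on these lists numbered 30, 33 and 36. They were 19.5% of the F344_Nic list and 22.7% of the members, 30.6% of the HIV_Sal list and 25% of the members, and 23.8% of the HIV_Nic list and 27.3% of the members. Short transcripts made up 36.4%, 34.3% and 38.4% of the 3 lists. Of the 132 members, 78 met the rule in none of these groups, 28 in 1, 7 in 2 and 19 in all 3. The 19 were all longer members, from 487 to 7310 bases and of 19 genes.

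**Figure D2:**
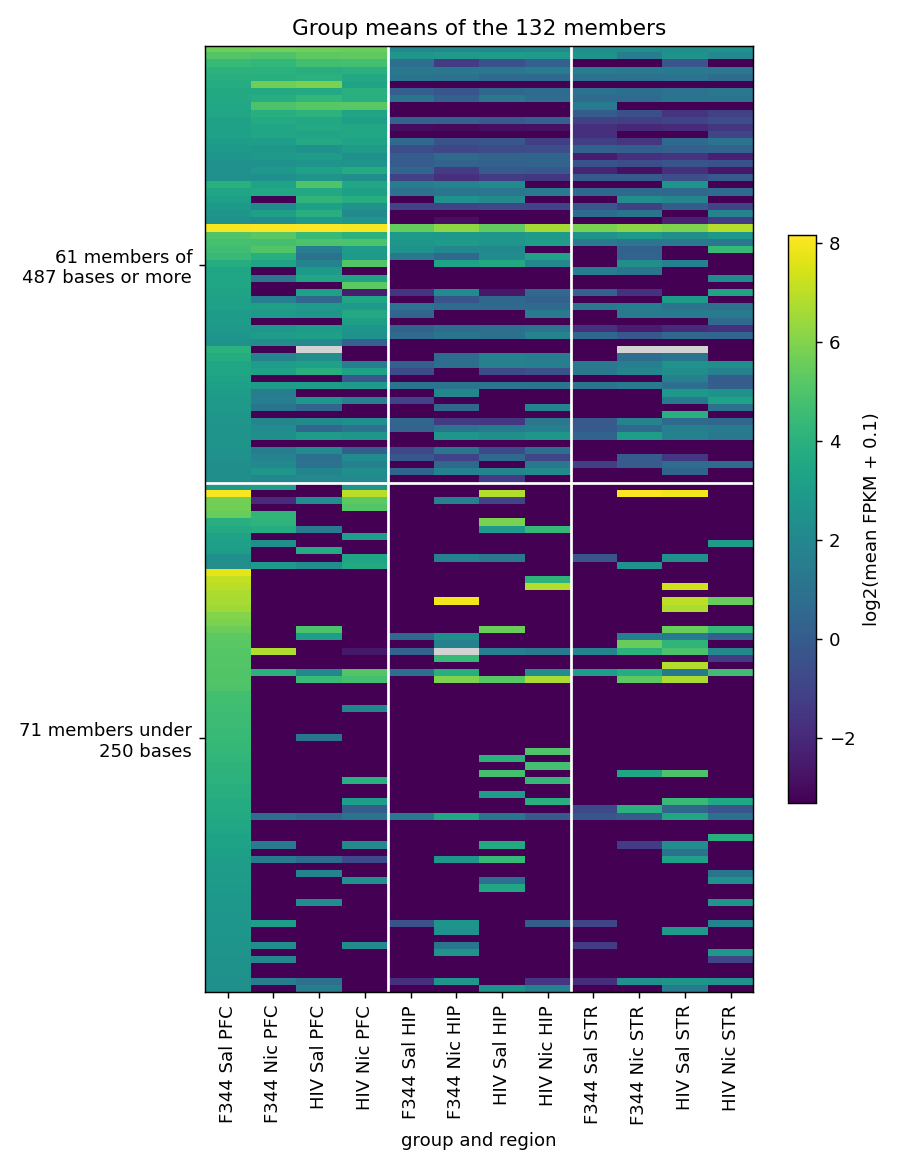
Group means of the 132 members (rows) in the 12 sets of rats (columns), as log2(mean FPKM + 0.1), with grey where no rat had a value. The upper block holds the 61 members of 487 bases or more and the lower block the 71 members under 250 bases, each ordered by the number of other groups in which the rule was met. The F344_Sal PFC column is bright throughout because it chose the members. The 19 members at the top are bright in all 4 PFC columns, and most short members are dark outside F344_Sal.

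These 19 members were selected by the values of all 4 groups, and their levels are given as a description. The median of their PFC means was 11.1 FPKM in F344_Sal, 12.9 with nicotine in the same strain, 12.97 in HIV_Sal and 11.7 in HIV_Nic rats, while their HIP and STR medians lay between 0.567 and 1.03 FPKM. The highest of a member's 4 PFC group means was at most 1.5 times the lowest for 13 of the 19, with a median ratio of 1.35 and a range of 1.11 to 5.73. The widest range was that of a 3110-base member, from 10.4 FPKM in HIV_Nic to 59.7 in HIV_Sal rats, which had a value in few rats. Of the 19, 9 were detected in all 12 F344_Sal PFC rats and 6 in all of the 36 other PFC rats.

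ENSRNOT00000006731 (gene ENSRNOG00000004805, 3355 bases) was the highest of the 19 by its F344_Sal PFC mean, at 48.9 ± 6.46 FPKM. Among members with F344_Sal means above 0 in both HIP and STR it was also one of the 8 with the highest F344_Sal ratios, a choice that did not use the other groups. Members with a mean of 0 in either region were left out of that order, and those at 0 in both have no finite ratio. Its lowest, median and highest PFC values were 40.9, 50.4 and 61.7 FPKM in F344_Sal rats. They were 45.0, 53.5 and 64.3 in F344_Nic rats, 36.2, 49.8 and 62.1 for HIV_Sal, and 16.7, 46.7 and 66.1 for HIV_Nic rats. Its highest value in any HIP rat was 8.50 FPKM and in any STR rat 9.52 FPKM, both in HIV_Nic rats. The PFC values thus did not overlap those of the other regions in any group. In the HIV_Sal rats the PFC mean of 50.7 ± 7.25 FPKM exceeded the HIP mean of 3.99 ± 1.44 by 3.74 ± 0.17 (SE) on the log2 scale of FPKM + 0.1 (limma, adjusted p = 2.79e-43, n = 12 rats per region). Against the STR mean of 4.97 ± 1.03 the difference was 3.34 ± 0.17 (limma, adjusted p = 3.13e-38).

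ENSRNOT00000027829 (gene ENSRNOG00000020519, 2260 bases) was the next highest by the same mean, and it varied more among rats. Its lowest, median and highest PFC values were 22.7, 28.1 and 62.5 FPKM in F344_Sal rats. They were 0, 33.2 and 42.8 in F344_Nic rats, 21.7, 33.0 and 72.2 for HIV_Sal, and 19.0, 38.2 and 63.1 for HIV_Nic rats. It was at 0 in 1 of the F344_Nic PFC rats. Every other PFC rat stood at 19.0 FPKM or more, above the highest HIP rat at 13.3 and the highest STR rat at 14.7. Its PFC means in the 3 groups not used for the members were 30.9 ± 11.2 FPKM with F344_Nic, 38.1 ± 14.6 with HIV_Sal and 38.9 ± 15.1 with HIV_Nic, and its HIP means were 7.34 ± 2.61, 7.65 ± 2.82 and 7.35 ± 3.59 FPKM.

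Some other members of the 19 had lower PFC levels, and those below were picked because their values did not overlap between regions. Most of the 19 did not separate in this way. Of the 19, 13 had a PFC value at or under 0.01 in the 36 rats not used by the rule. A 1600-base member measured 16.2 ± 2.96 FPKM in the PFC of F344_Nic rats, 2.32 ± 0.676 in the HIP and 2.66 ± 0.831 in the STR. Over the 36 rats not used by the rule, its PFC values ran from 9.25 to 29.6 FPKM, its HIP values from 1.44 to 4.01 and its STR values from 1.197 to 5.61. A 3095-base member ran from 4.33 to 26.2 FPKM in these PFC rats and reached at most 3.60 in HIP rats and 4.08 in STR rats. With the 3355-base member, these were the 3 members whose every PFC value lay above every HIP and STR value in the 36 rats of each region. Over all transcripts 12 of 37908 did so, a background of 0.0317%.

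A 3882-base member had the highest ratio among the members with a mean above 0 in every region. In the F344_Sal rats it stood at 9.48 FPKM in the PFC against 0.191 in the STR and 0.0315 in the HIP, a ratio of 49.6 to the higher of them. In the HIV_Nic rats its PFC values had a lowest of 0, a median of 12.6 and a highest of 18.4 FPKM, and its highest STR value was 0.946. The high values were thus found only in the PFC in these libraries, yet 4 of the 36 PFC rats not used by the rule were at or under 0.01.

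**Figure D3:**
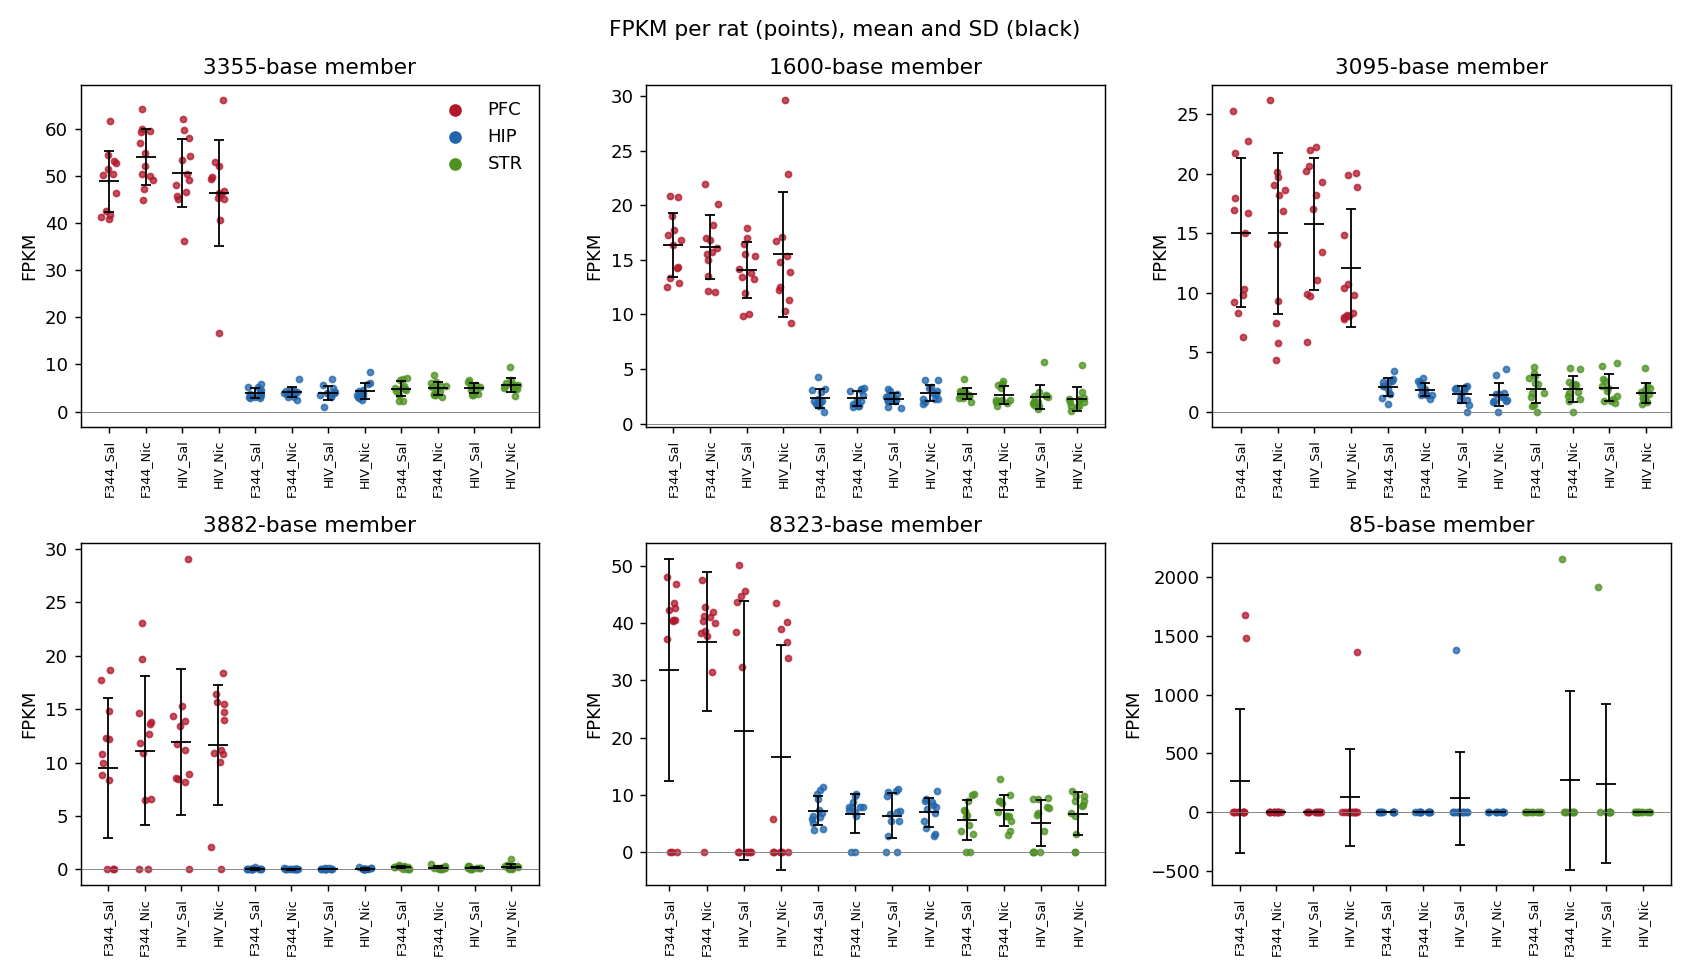
FPKM (linear axis) in each rat, by group and region, for 6 members. Points are rats, and the black bars are the mean and SD of the rats with a value. The 3355-, 1600- and 3095-base members separate the PFC from the HIP and STR, the 8323-base member is split between 0 and about 40 FPKM in the PFC, and the 85-base member is at 0 in nearly all rats. SD bars that reach below 0 mark groups in which a few rats hold all of the level.

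The regions were then compared in the 3 groups that the rule had not used, by limma on log2(FPKM + 0.1). A transcript detected in at least 6 of 12 rats of only the PFC is almost bound to come out higher there, so the counts that can be read against a background are those of transcripts detected in at least 6 rats of both regions, a filter chosen after seeing the data. Against the HIP, 18 of 21 such members were higher in the PFC of F344_Nic rats at an adjusted p under 0.05, beside 6.73% of the 14124 transcripts tested. The count was 17 of 19 in HIV_Sal rats, beside 4.79%, and 16 of 20 in HIV_Nic rats, beside 4.26%. Against the STR, 16 of 19 were higher in F344_Nic rats (background 7.77%), 17 of 20 in HIV_Sal rats (6.09%) and 16 of 19 in HIV_Nic rats (6.11%). The comparisons with the HIP and the STR share their PFC samples.

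The filter first planned asked for detection in either region, and its counts are given as a description only. Against the HIP they were 26 of 32 members in F344_Nic rats, beside 7.30% of all transcripts tested, 30 of 33 in HIV_Sal rats, beside 5.58%, and 27 of 33 in HIV_Nic rats, beside 5.12%. Against the STR they were 27 of 32 (8.64%), 29 of 33 (6.55%) and 29 of 33 (6.75%). With this filter 99 or 100 of the 132 members were not tested in each comparison, and all 71 short members were among the 97 that entered none of the 6 tests. No member was lower in the PFC at an adjusted p under 0.05 in these 6 limma tests. Of all transcripts, from 1243 of 17394 (HIV_Sal, against HIP) to 2717 of 17371 (F344_Nic, against STR) were lower. Members that entered through detection in the PFC alone could hardly come out lower, so nothing is read from this.

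Several longer members were split among rats between a high level and 0. ENSRNOT00000041296 (gene ENSRNOG00000033134, 8323 bases) was listed at 0 in 3 of the 12 F344_Sal PFC rats and between 37.3 and 48.1 FPKM in the others. It was at 0 in 1 F344_Nic rat, in 6 HIV_Sal rats and in 6 HIV_Nic rats. Apart from HIV_Nic rat 11, at 5.89 FPKM, the rats with a value above 0 in these 3 groups stood at 31.5 FPKM or more. The FPKM summed over all transcripts of its gene that matched or shared splice sites did not show this split. The gene sum ran from 74.9 to 98.9 FPKM in F344_Sal PFC rats, from 62.7 to 105.3 with nicotine, from 49.0 to 106 for HIV_Sal and from 42.5 to 115 for HIV_Nic, and was at 0 in none.

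Over the 36 PFC rats not used by the rule, this gene sum averaged 89.9 FPKM with a coefficient of variation of 18.7%, while the transcript itself averaged 24.9 FPKM with 80.9%. The gene sum averaged 17.1 FPKM in both the HIP and the STR, a PFC ratio of 5.25. The transcript was higher in the PFC in none of the 6 limma tests (0 at an adjusted p under 0.05, and 1 at an unadjusted p under 0.05, in F344_Nic rats against the HIP). In HIV_Nic rats against the HIP its log2 difference was -1.97, although its mean was higher in the PFC, at 16.6 against 6.98 FPKM. On the log2 scale the 6 PFC rats at 0 weigh more than in the mean.

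The same comparison was made for all 61 longer members. Their PFC values in the 36 rats were at or under 0.01 in 44.6% of 2100 cases, and in 75% of those 936 cases the gene sum exceeded 1 FPKM. The median coefficient of variation was 104% for the transcripts and 27.7% for their gene sums, and the gene sum varied less for 50 of the 58 longer members with a level above 0. Over the 6911 transcripts at the same F344_Sal PFC level with such a value, the median was 41.2%. The counts that compare a transcript with its gene sum have no share over all transcripts beside them. They are a description and not a trait particular to the members.

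The longer members also differed in how far the sum over their gene was higher in the PFC. In the 36 rats not used by the rule, the gene sum was at least 4 times higher in the PFC than in the HIP and the STR for 18 of the 61 longer members, 2 to 4 times for 12, and under 2 times for 29, with no ratio for the rest. Among the 19 members that met the rule in every group these counts were 12, 5 and 1, and for the 487-base member the gene sum was 0 in both other regions. The same 36 rats took part in choosing these 19, so their counts are a description only.

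A 4242-base member was the most abundant of those under 2 times. It averaged 273 FPKM in the PFC over the 36 rats, 70.2 across HIP rats and 83.9 across STR rats. Its gene sum averaged 418 FPKM in the PFC and 400 in the HIP, and 202 in the STR. In HIP rats the transcript was at or under 0.01 in 4 F344_Nic, 6 HIV_Sal and 3 HIV_Nic rats, and its median there was 76.5, 22.9 and 83.2 FPKM. Its higher mean in the PFC passed the test in 1 of the 6 comparisons.

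The 3110-base member made up little of its gene. Its gene sum averaged 152 FPKM in the PFC, 147 across HIP rats and 129 across STR rats, while the transcript had a value in 6 of the 36 PFC rats and was at or under 0.01 in 3 of these. It met the rule in all 4 groups through means over few rats, since rats without a value were left out. Its F344_Nic and HIV_Sal means, 50.6 and 59.7 FPKM, each came from a single rat. At the other end, the gene sum of the 3882-base member was 64.4 times higher in the PFC than in the STR.

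A pair of genes held 2 members each. The 3353- and 2399-base members shared a gene whose sum averaged 27.2 FPKM in the PFC, 0.383 for the HIP and 4.32 for the STR over the 36 rats. The transcripts averaged 13.9 and 11.02 FPKM in the PFC. The 1390- and 1006-base members shared a gene with 23.5 FPKM in the PFC, 3.94 for the HIP and 7.36 for the STR, and averaged 10.8 and 5.94 FPKM in the PFC. Values of such members share reads and are not independent of each other.

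**Figure D4:**
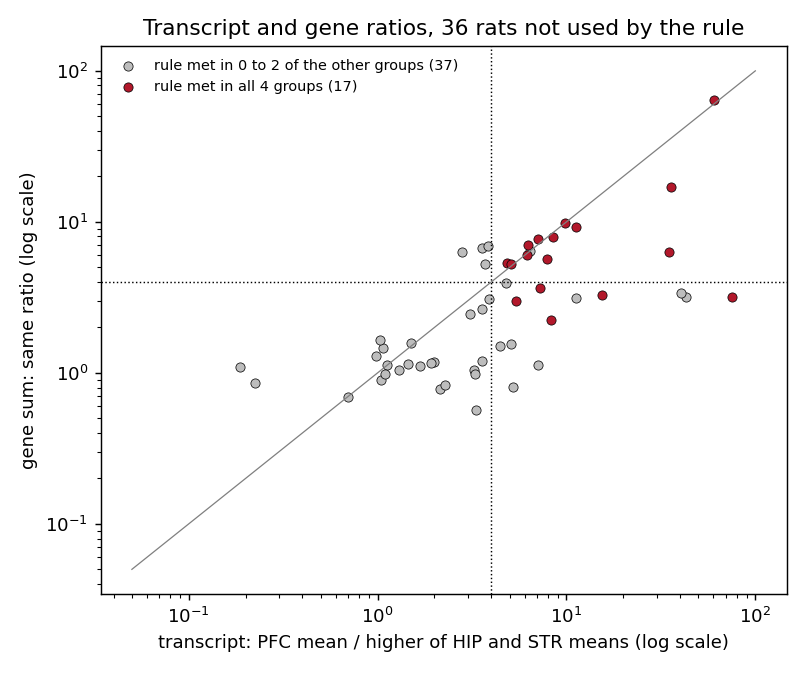
Ratio of the PFC mean to the higher of the HIP and STR means over the 36 rats per region not used by the rule, for the transcript (horizontal) and for the sum over its gene (vertical), both on log axes. Points are the 54 longer members with both ratios above 0, dotted lines mark a ratio of 4, and the grey line marks equal ratios. Members that met the rule in all 4 groups (17 plotted) lie to the right of 4 because these same rats chose them. A further set lies near a gene ratio of 1.

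The effect of nicotine in HIV-1Tg rats was compared between HIV_Nic and HIV_Sal rats within each region, over transcripts detected in at least 6 of 12 rats of both groups. In the PFC, 31 of the 132 members were tested. None passed an adjusted p under 0.05 in limma, beside 0% of the 14669 transcripts tested, and 1 member passed an unadjusted p under 0.05 and a fold over 1.2, beside 6.44% of all transcripts (3.14% higher and 3.31% lower). Other settings gave other counts, each set here beside the share of all features tested in the same fit. The count was 2 of 31 with a pseudocount of 1 (5.74% of all) and with sample weights (4.53%). It was 5 of 130 with no filter on low values (4.39%), 5 of 79 with a mean of at least 1 FPKM as the filter (8.11%), and 0 of 31 with sums over the exact-match transcripts of a gene (6.14%). After values at or under 0.01 and outliers were removed it was 6 of 29 (10.9%), all lower (5.16% of all transcripts were lower). The median difference of the tested members was -0.34 on the log2 scale, beside 0.01 over all transcripts, with 8 members above 0 and 23 below. Without HIV_Nic rats 10 and 11 the median was -0.08 and 2 members passed (4.12% of all).

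The member that passed the unadjusted threshold was ENSRNOT00000065530 (gene ENSRNOG00000008447, 4563 bases). Its lowest, median and highest PFC values were 8.52, 12.3 and 15.5 FPKM in HIV_Sal rats and 1.40, 9.05 and 13.6 FPKM in HIV_Nic rats. The groups overlapped. It was lower in HIV_Nic rats by a log2 difference of -0.57 ± 0.19 (limma, unadjusted p = 0.0044, adjusted p = 0.726, n = 12 per group). The lowest values were those of HIV_Nic rats 10 and 11, at 1.40 and 5.85 FPKM, against 7.12 to 13.6 in the other 10 rats. Without these rats the difference was -0.28 ± 0.11 (unadjusted p = 0.0117 in limma, adjusted p = 0.999).

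The strains were compared under nicotine between HIV_Nic and F344_Nic rats. In the PFC no member passed an adjusted p under 0.05 in limma (0 of 31 tested), beside 5.29% of the 14444 transcripts tested. The count was 1 of 79 when a mean of at least 1 FPKM was the filter (4.93% of all), 1 of 29 after low values and outliers were removed (11.3%), and 3 of 31 with sums over the exact-match transcripts of each gene (5.23%). With an unadjusted p under 0.05 joined to a fold over 1.2, 4 of the 31 passed, all lower in HIV_Nic rats, a share of 12.9%. Of all transcripts 12.8% passed, of which more were higher (7.89% of those tested) than lower (4.88%). Without HIV_Nic rats 10 and 11 the count was 2 (11.6% of all), both lower (4.19%), and 1 of them was among the 4. It was also 2 with a pseudocount of 1 (11.3%), with only the 24 samples compared (10.9%) and with sample weights (12.2%), of which 2, 1 and 2 were among the 4. The median difference was -0.12 on the log2 scale and 0.15 without HIV_Nic rats 10 and 11. This comparison shares its HIV_Nic samples with the nicotine comparison above.

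The largest of these 4 differences was that of ENSRNOT00000041296, the 8323-base member that was split among rats. It was -3.85 ± 1.56 on the log2 scale (limma, unadjusted p = 0.0177, adjusted p = 0.21). Its FPKM averaged 16.6 ± 19.7 in HIV_Nic and 36.8 ± 12.2 in F344_Nic rats, and the difference lay in the number of rats at 0, which was 6 and 1. Its gene sum was 87.9 ± 22.1 FPKM in HIV_Nic and 89.7 ± 11.4 FPKM in F344_Nic rats, a difference within the spread between rats.

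ENSRNOT00000065088 (gene ENSRNOG00000007636, 4500 bases) differed by -1.49 ± 0.71 (limma, unadjusted p = 0.0403, adjusted p = 0.339). It averaged 5.30 ± 4.01 FPKM in HIV_Nic and 7.02 ± 2.96 in F344_Nic rats, and it was listed at 0 in 3 HIV_Nic rats, rat 11 among them, and in no F344_Nic rat. Without HIV_Nic rats 10 and 11 its difference was -1.17 and no longer passed the unadjusted threshold (limma, unadjusted p = 0.0981). With values at or under 0.01 and outlying values removed, it was 0.025.

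The remaining pair lost their calls without HIV_Nic rats 10 and 11. The 4563-base member averaged 8.97 ± 3.23 against 11.5 ± 1.91 FPKM, a log2 difference of -0.49 ± 0.19 (limma, unadjusted p = 0.0124, adjusted p = 0.167). Without these rats it was -0.20 ± 0.11 (limma, unadjusted p = 0.0605). The 3355-base member averaged 46.5 ± 11.3 against 54.1 ± 5.98 FPKM, a log2 difference of -0.27 ± 0.12 (limma, unadjusted p = 0.0315, adjusted p = 0.297), and of -0.15 ± 0.08 without them (limma, unadjusted p = 0.0821). For the 3355-base member HIV_Nic rat 10 stood at 16.7 FPKM and the other HIV_Nic rats, rat 11 aside, at 40.7 to 66.1. In rat 10 the sum over its gene was 91.2 FPKM, above the 40.7 to 66.1 of those rats. Transcript and gene sum thus departed from the other rats in opposite directions in this library.

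**Figure D5:**
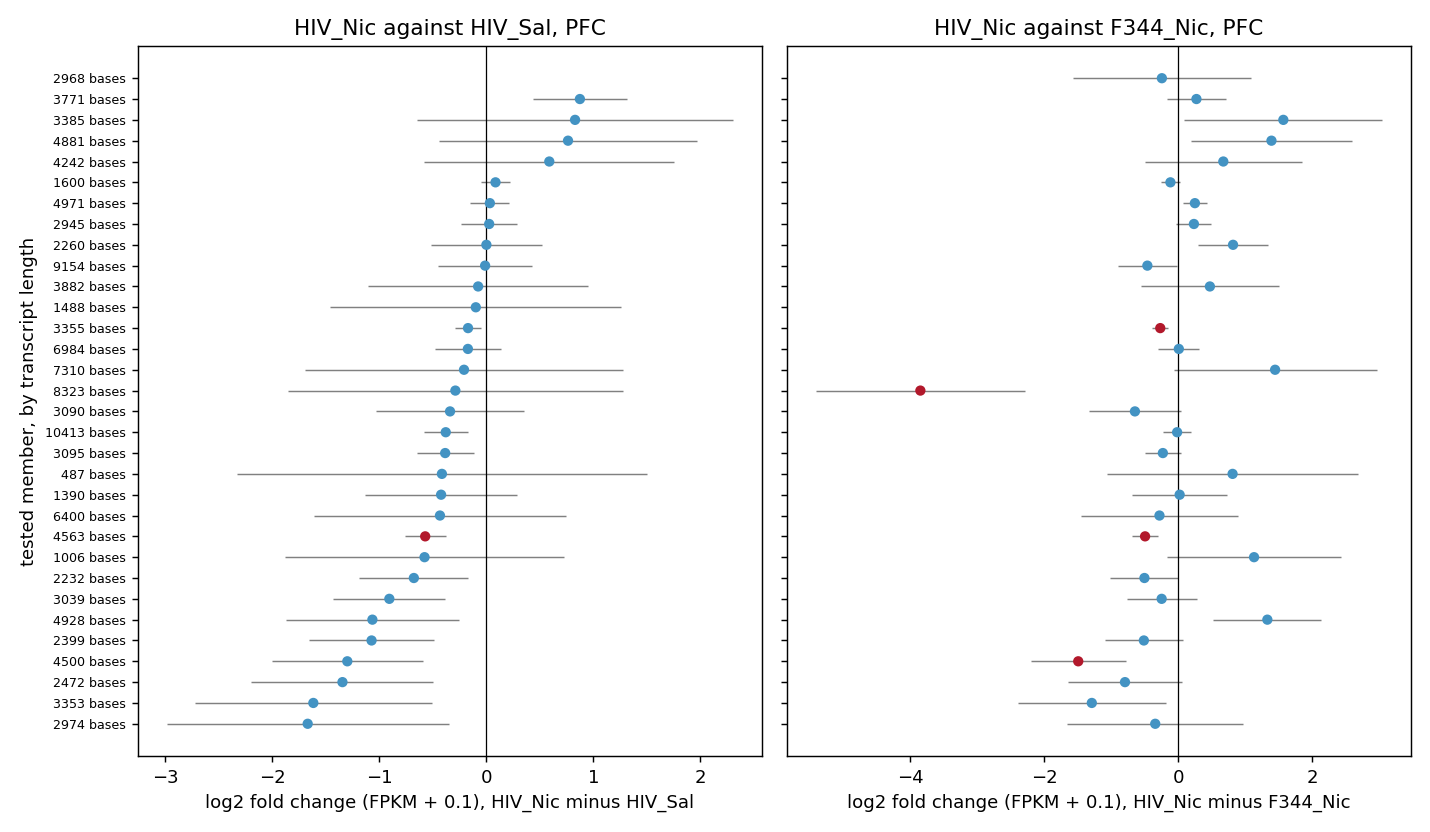
Log2 fold changes of FPKM + 0.1 in the PFC for the members tested in either comparison, labelled by transcript length, for HIV_Nic minus HIV_Sal (left) and HIV_Nic minus F344_Nic (right), with bars of 1 SE from limma. Red points passed an unadjusted p under 0.05 and a fold over 1.2, which 1 member did on the left and 4 on the right. No member passed after adjustment.

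In the HIP and STR, where the members are low by the rule, fewer could be tested. For HIV_Nic against HIV_Sal, 0 of 18 tested members passed the unadjusted threshold in limma for the HIP (background 4.56%) and 1 of 19 for the STR (6.49%, with 2.39% higher and 4.10% lower). The latter was ENSRNOT00000027829, with 4.05 ± 3.52 FPKM in HIV_Nic and 5.78 ± 3.70 FPKM in HIV_Sal rats, a log2 difference of -1.17 ± 0.55 (limma, unadjusted p = 0.0378, adjusted p = 0.655). This call was lost with a pseudocount of 1 and with sample weights (0 of 19 members, beside 5.12% and 6.48% of all transcripts), with the rat number as a block (0 of 19, 6.44%), with only the 24 samples compared, and with low values and outliers removed, where the difference was -0.05 ± 0.34. For HIV_Nic against F344_Nic, 0 of 20 members passed for the HIP (5.06%) and 0 of 19 for the STR (5.71%). The unadjusted counts depend on the filter. For HIV_Nic against HIV_Sal with no filter on low values they were 3 of 131 for the HIP (3.31% of all) and 11 of 130 for the STR (4.19%). With a mean of at least 1 FPKM they were 2 of 54 (5.34%) and 9 of 62 (6.97%). After low values and outliers were removed they were 1 of 18 (10.1%) and 2 of 19 (12.6%). For HIV_Nic against F344_Nic with no filter they were 2 of 130 (3.55%) and 6 of 131 (3.95%), with a mean of at least 1 FPKM 2 of 57 (6.02%) and 3 of 52 (6.68%), and after low values and outliers were removed 3 of 19 (11.2%) and 4 of 19 (12.4%). None passed after adjustment in these 4 limma comparisons with the filter on detection, beside 0%, 0.268%, 0.0267% and 0.0271% of all transcripts tested. With low values and outliers removed, 1 of 19 passed for HIV_Nic against HIV_Sal in the STR, beside 1.74% of all transcripts.

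The comparisons with F344_Sal rats have as a reference the values that chose the members, which were high in the PFC and low elsewhere by the rule. The counts below therefore say nothing about strain or nicotine and are given beside the background for completeness. In the PFC, 1 of 30 tested members passed the unadjusted threshold for HIV_Sal against F344_Sal (background 4.01%) and 2 of 30 for F344_Nic against F344_Sal (10.3%). None passed after adjustment in limma, beside 0.0203% and 4.99% of all transcripts. In the HIP, 0 of 18 members passed the unadjusted threshold in each of these comparisons (4.39% and 5.52%), and in the STR 0 of 19 (5.95% and 3.94%). None passed after adjustment in limma there either, beside 0.0536% and 0.00668% of all transcripts in the HIP and 0.0399% and 0.00669% in the STR.

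Near its thresholds the rule divided transcripts with similar values. At the level threshold, the lowest members were a 3331-base transcript at 5.03 FPKM and a 99-base transcript at 5.04 FPKM in the F344_Sal PFC. The nearest transcripts outside, of 3171 and 7471 bases, stood at 4.99 and 4.96 FPKM. At the ratio threshold, members of 3102 and 9154 bases had ratios of 4.01 and 4.02, and transcripts of 4112 and 5354 bases just outside had ratios of 3.99 and 3.96.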

How the data were processed

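Total RNA from PFC, HIP and STR punches was sequenced as 50 bp paired-end reads on an Illumina HiSeq2000, and reads were mapped with TopHat and Bowtie (Bowtie 1.04 in the submitters' processing notes) to the rat build Rn4 with Ensembl annotation. The authors assembled and compared transcripts with Cufflinks, and the deposited tables, 1 for each strain and region, hold packed cells whose 4th field is the FPKM of the transcript in that library. FPKM is already scaled to library size and transcript length by the authors. Here, rows with an exact match to an annotated transcript were joined by identifier. Of all cells, 2.68% had no value and were left out of means.

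Tests used limma 3.58.1 (R 4.3.3) on log2(FPKM + 0.1) with a trended prior, 2-sided, with p-values adjusted by Benjamini-Hochberg over all transcripts tested. Comparisons between regions were fitted over all 144 samples, and comparisons within a region over its 48 samples. A transcript was tested when its FPKM exceeded 0.01 in at least 6 of 12 rats of either region, or of both groups within a region. For regions the same filter in both was added after seeing the data. A fold change on this scale understates the change of low transcripts. The members and lists were chosen with earlier results of these data known. Lists of marker genes need gene names and were not analysed here. The rule for named members took those with the highest PFC means and ratios, those past a threshold between groups and those nearest the rule's limits, with at most 2 identifiers higher and 2 lower per comparison. The other members singled out by length, and the divide at 250 bases, were chosen after their values were seen. Gene sums add the FPKM of exact-match and splice-sharing transcripts of a gene. The fits were checked on simulated data, but no outcome is reported here and nothing is concluded from that check. The labels do not say that libraries came from separate litters or batches, and p-values measure the spread between these rats.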

Additional observations from a re-analysis of the deposited data

How the results depend on the processing

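Over all alternatives, 303 counts stayed within 1.5 times the reported value and 71 did not. Of the differences of named members in this tally, 163 kept their direction and side of the threshold, 11 lost the threshold and 1 changed sign. The tally does not hold every lost call, since that of ENSRNOT00000027829 in the STR was also lost under several settings, as given above. The members numbered 246 at 3 FPKM and a ratio of 3 and 51 at 10 FPKM and a ratio of 8. After values at or under 0.01 and outliers were removed, members higher in the PFC numbered 18 (HIV_Sal, against HIP), 19 (HIV_Sal, against STR) and 18 (HIV_Nic, against STR). With detection required in both regions, chosen after seeing the data, they numbered 17 (HIV_Sal) and 16 (HIV_Nic) against the HIP and 16 (F344_Nic), 17 (HIV_Sal) and 16 (HIV_Nic) against the STR. The filters also set how many members were tested, so a lower count does not show a weaker difference. Counts with detection in both regions stand above beside their backgrounds, and those with low values and outliers removed have none here. The other counts are of members at unadjusted p under 0.05 and a fold over 1.2, in the order HIV_Nic against HIV_Sal, HIV_Nic against F344_Nic, HIV_Sal against F344_Sal and F344_Nic against F344_Sal, with those within 1.5 times left out. In parentheses are the members tested and the share of all features called in the same fits, each as a range over the 4 comparisons for the PFC, the HIP and the STR in turn. With no filter on low values they were 5, 8 and 8 in the PFC (the first, the third and the fourth), 3, 2, 4 and 1 in the HIP and 11, 6, 3 and 1 in the STR (130 to 131, 130 to 131, 130 to 131 tested, 2.92 to 7.25%, 3.31 to 3.83%, 2.99 to 4.19% of all called). With a mean of at least 1 FPKM they were 5, 8 and 8 in the PFC, 2, 2, 3 and 1 in the HIP and 9, 3 and 3 in the STR (the first 3) (79 to 130, 45 to 57, 35 to 62 tested, 4.74 to 13.5%, 5.18 to 6.15%, 4.48 to 6.97% of all called). With low values and outliers removed they were 6, 3 and 1 in the PFC (the first, the third and the fourth), 1, 3, 4 and 2 in the HIP and 2, 4, 1 and 1 in the STR (28 to 29, 18 to 19, 18 to 19 tested, 9.69 to 19.2%, 10.1 to 11.8%, 9.24 to 12.6% of all called), and the difference of ENSRNOT00000065088 became 0.025. A pseudocount of 1 gave 2 and 2 in the PFC (the first pair) and 0 and 1 in the STR (the first and the third) (30 to 31, 18 to 20, 19 tested, 3.26 to 11.3%, 3.51 to 4.33%, 3.04 to 5.12% of all called). Fitting only the 24 samples compared gave 2 and 0 in the PFC (the second and the fourth) and, for the fourth, 1 in HIP and 1 in STR rats (30 to 31, 18 to 20, 19 tested, 4.32 to 10.9%, 3.73 to 5.23%, 3.63 to 5.71% of all called). Sample weights gave 2, 2 and 2 in the PFC (the first 3), 1 in the HIP (the third) and 0 and 1 in the STR (the first and the third) (30 to 31, 18 to 20, 19 tested, 4.53 to 12.2%, 4.30 to 5.22%, 4.33 to 6.48% of all called). Without HIV_Nic rats 10 and 11 (PFC) and rat 4 (HIP) they were 2, 2 and 2 in the PFC (the first 3) and 1 in the HIP (the third) (30 to 31, 18 to 20, 19 tested, 4.12 to 11.6%, 3.87 to 5.74%, 3.94 to 6.49% of all called). With sums over the exact-match transcripts of a gene in place of the transcript they were 0 and 2 in the PFC (the first and the third) and 1 in the HIP (the first) (29 to 31, 15 to 16, 16 to 17 tested, 4.09 to 12.6%, 4.30 to 5.57%, 4.04 to 6.55% of all called). After adjustment, HIV_Nic against F344_Nic in the PFC had 1 call with a mean of at least 1 FPKM (4.93% of all called), 1 with low values and outliers removed (11.3%) and 3 with these gene sums (5.23%). HIV_Nic against HIV_Sal in the STR had 1 with low values and outliers removed (1.74%), and F344_Nic against F344_Sal in the PFC had 1 with the gene sums (5.01%). The cause of these changes was not tested, apart from the number of members tested, which the filters set. Correlations of rats of the same number ran from -0.0373 to 0.0444 across regions and from -0.0528 to 0.0478 across groups, none over 0.1, so the numbers were not taken as pairs. The library of the same number was the best match in 18 of 96 comparisons of a PFC library with those of another region. Between groups, which hold different rats, it was the best match in 10 of 144. Each choice was among 12 libraries, so 1 in 12 would match with no pairing at all. The share across regions was above this, and whether libraries of the same number share an animal was not tested further. A fit with the replicate number as a block gave 2 and 2 in the PFC (the first and the third) and 0 in the STR (the first) (30 to 31, 18 to 20, 19 tested, 3.97 to 12.6%, 4.45 to 5.46%, 3.86 to 6.44% of all called), and 25 to 29 members higher in the PFC than in another region. The 25 to 29 members have no share of all transcripts beside them and are given as a description only. Read depth is not listed, and values near 0.01 FPKM cannot be told from absence.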
